A study of Mus musculus with 74 samples.

Results

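The laminin chains examined here were 9 genes, Lama1 to Lama5, Lamb1 to Lamb3 and Lamc1, found by gene name in the gene tables deposited for mouse mammary tumors and their lung metastases. They stood among 17270 to 19320 genes with a value in each table, and all 9 had values in 4 of the 5 tables with group means. In the fifth, 8 of 9 had values and Lama1 had none.

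Primary tumor (PT) and lung metastasis (Lung met) RNA was sequenced, 74 samples in all, with 6 PT and 6 Lung mets per model except C3Tag, which had 7 of each. All animals were untreated, transgene-positive females. Her2 (MMTV-Her2) and C3Tag (C3TAg) mice had the FVB background. PyMT-F1 mice (MMTV-PyMT) were offspring of an FVB PyMT male and a female of another strain. By sample title the strains were BALB (BALB/NJ in the labels), SEAGN (SEA/GNJ) and AKR, the last with 6 PT and 6 Lung mets. A further PyMT-F1 table was deposited under the name AKR. For the ECM receptor genes, its ratios equal those that the study's supplementary data list for a cross with the BL6 strain. No sample title names BL6. The strain of that table was therefore left unsettled. The direction of the chains, their mean ratios, the contrast between them and the search for the nearest genes are also given without it. MMTV is a viral promoter active mainly in mammary epithelium, and C3(1) drives the SV40 T antigen of C3Tag. All primary tumors of an animal were sampled and combined, and in Her2 and C3Tag the tumors of animals with single lesions were resected before the lungs were collected. Tissue and time of collection cannot be told apart in those animals. The age of the animals was not given in the labels. Among the 36 PyMT-F1 samples, 23 carried a genotype tag naming another strain than the title. Of all 74 samples, 16 had a source tissue that differed from the title. Levels of the Myc model were not analysed here.

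Laminins are secreted trimers of an α, a β and a γ chain (Lama, Lamb and Lamc genes) that build the sheet-forming network of basement membranes. The α chain carries the main binding sites for integrins and dystroglycan on the cell surface. Lama3 and Lamb3 encode chains of the epithelial laminin that anchors basal cells to the matrix through hemidesmosomes, whereas Lama4 and Lama5, with Lamb1 and Lamc1, encode the chains of laminins under endothelium. Lama5, Lamb1 and Lamc1 are also made by many epithelia. Lama2 is the chain of muscle and mesenchyme, Lama1 is prominent in the embryo, and Lamb2 is prominent in kidney, at synapses and around vessels.

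Each value is a least-squares mean of normalized counts over a group (normalized group mean). No value of a single sample was analysed, so no SD and no test stand beside a value, and a difference from PT to Lung met cannot be set against the spread between animals. The ratio of Lung met to PT was taken within a table, since the tables were normalized separately. In bulk tissue, fewer cells of a type and less RNA per cell cannot be told apart.

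The epithelial chains were higher in Lung mets than in PT in every table with means, and Lama3 had the highest mean log2 ratio over the tables, 1.36 against 0.77 for Lamb3. Without the table named AKR these means were 1.41 and 0.86. Lama3 lies on chr18:12333819-12583013 (GRCm38, plus strand). Its normalized group mean was 64.3 in PT and 299 in Lung mets of Her2, 919.6 and 1947 in C3Tag, 165 and 310.1 in BALB, 127 and 344 in SEAGN, and 207 and 457 in the table named AKR. The Lung met mean was the higher one in 5 of 5 tables and in the 4 tables without the one named AKR. The ratio was 4.66 in Her2, 2.72 in SEAGN, 2.21 in the table named AKR, 2.12 in C3Tag and 1.87 in BALB. Her2 had both the lowest PT mean of Lama3 relative to the other α chains and the highest ratio. Among the log2 ratios of all genes in a table, Lama3 stood between the 93.3rd percentile in C3Tag and the 99.5th in Her2.

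Lamb3, the β chain that pairs with Lama3, lies on chr1:193207699-193343878 (GRCm38, plus strand). Its group mean was 3132 in PT and 6621 in Lung mets of Her2, 3558 and 5795 in C3Tag, 518 and 1059 in BALB, 472 and 724 in SEAGN, and 1223 and 1663 in the table named AKR. Lamb3 was thus higher in Lung mets in 5 of 5 tables, with ratios of 1.36 to 2.11, and reached 2-fold in Her2 (2.11) and BALB (2.05). It was higher in the 4 tables without the one named AKR as well.

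**Figure D1:**
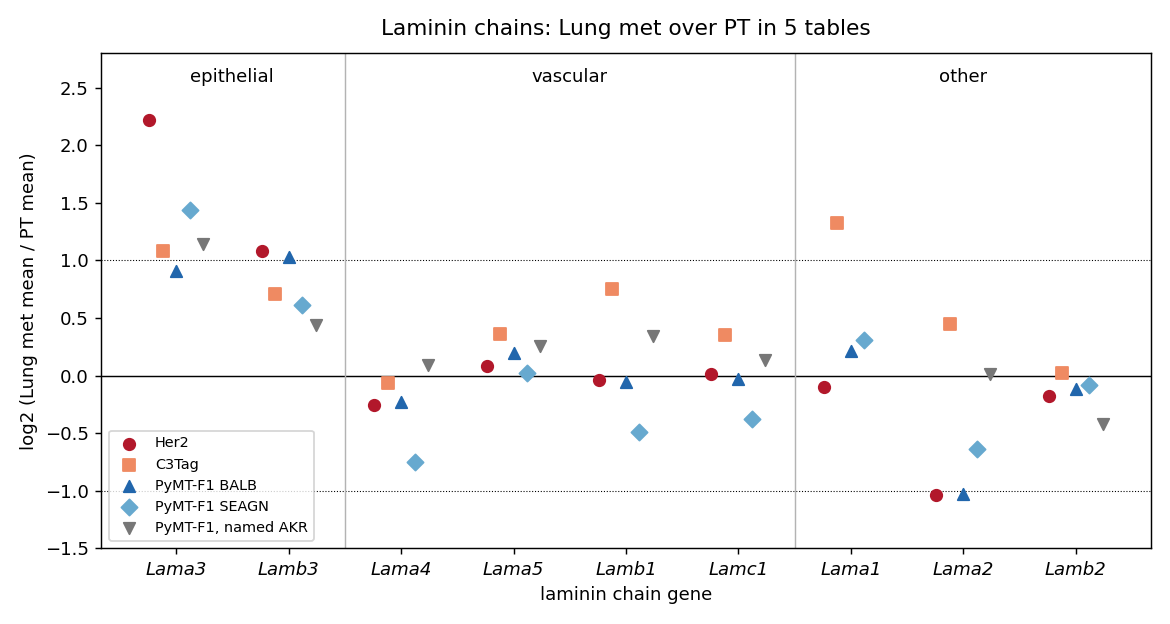
The log2 ratio of the Lung met group mean to the PT group mean (vertical axis) is plotted for each laminin chain gene (horizontal axis), with 1 point per table and dotted lines at 2-fold. The points of Lama3 and Lamb3 all lie above 0, between 0.44 and 2.22, whereas those of the vascular chains lie on both sides of it, between -0.75 and 0.75.

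The vascular chains had no shared direction. Lama4 (chr10:38965515-39110188, plus strand), the α chain of the endothelial basement membrane, had a group mean of 5055 in PT and 4221 in Lung mets of Her2, 2544 and 2430.1 in C3Tag, 800.3 and 681 in BALB, 858 and 508 in SEAGN, and 1685 and 1791 in the table named AKR. It was lower in Lung mets in 4 of 5 tables, with a ratio of 0.593 in SEAGN, and slightly higher in the table named AKR (1.06). Without that table it was lower in 4 of 4. Lama5 (chr2:180176373-180225859, minus strand) was higher in 5 of 5 tables, and in 4 of 4 without the table named AKR, but by small ratios of 1.01 to 1.28. Its group mean was 4219 in PT and 4471 in Lung mets of Her2, 9246 and 11859 in C3Tag, 1831 and 2092 in BALB, 1527 and 1550.2 in SEAGN, and 2353 and 2818 in the table named AKR.

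Lamb1 (chr12:31265234-31329644, plus strand) and Lamc1 (chr1:153218922-153332786, minus strand), the most widely used β and γ chains, differed between the models. The group mean of Lamb1 was 1282 in PT and 1250.5 in Lung mets of Her2, 3126 and 5267 in C3Tag, 656 and 633 in BALB, 887 and 631 in SEAGN, and 1611 and 2042 in the table named AKR. That of Lamc1 was 3225 and 3245 in Her2, 7032 and 8978 in C3Tag, 1208 and 1183 in BALB, 1472 and 1133 in SEAGN, and 2371 and 2598 in the table named AKR. Both were higher in Lung mets of C3Tag (ratios 1.68 and 1.28) and of the table named AKR (1.27 and 1.10), lower in those of SEAGN (0.711 and 0.770), and near their PT level in Her2 and BALB, at log2 ratios of -0.05 to 0.01.

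The mean log2 ratio of the vascular chains Lama4, Lama5, Lamb1 and Lamc1 was below that of the epithelial chains Lama3 and Lamb3 in 5 of 5 tables. The difference in log2 ratio, vascular minus epithelial, was -1.70 in Her2, -1.43 in SEAGN, -1.0 in BALB, -0.59 in the table named AKR and -0.54 in C3Tag, and it spanned -1.70 to -0.54 without the table named AKR as well. The epithelial mean itself ranged from 0.79 to 1.65 and the vascular mean from -0.40 to 0.35. Each of Lama3 and Lamb3 was above each vascular chain in 4 of 5 tables. The exception was C3Tag, where Lamb1 at 0.75 stood above Lamb3 at 0.70. No replicate spread of these differences could be computed.

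Lama2 (chr10:26980036-27619758, minus strand) had the widest range of log2 ratios over the tables, from -1.04 to 0.44. Its group mean was 367 in PT and 178 in Lung mets of Her2, 257 and 349.7 in C3Tag, 149 and 72.7 in BALB, 159 and 102 in SEAGN, and 127 and 128 in the table named AKR. The ratio was 0.486 in Her2, 0.490 in BALB and 0.642 in SEAGN, 1.01 in the table named AKR and 1.36 in C3Tag. Lama1 (chr17:67697259-67822647, plus strand) was at 88.4 in PT and 222 in Lung mets of C3Tag, 362 and 338 in Her2, 204 and 236 in BALB, and 196 and 243 in SEAGN. Its ratio was 2.51 in C3Tag, but only 0.935 in Her2, 1.16 in BALB and 1.24 in SEAGN. Lamb2 (chr9:108479736-108490530, plus strand) had group means of 6168 in PT and 5467 in Lung mets of Her2, 4051 and 4124 in C3Tag, 845 and 778 in BALB, 850.0 and 800.5 in SEAGN, and 2246 and 1674 in the table named AKR. Its ratios were 0.886 in Her2, 1.02 in C3Tag, 0.921 in BALB, 0.942 in SEAGN and 0.745 in the table named AKR. No Lamb2 ratio reached 1.5-fold in either direction.

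Read against all genes, the count of chains at least 2-fold higher in Lung mets was 2 of 9 in Her2 (Lama3, Lamb3), where 2.38% of all genes were that much higher, and 2 of 9 in C3Tag (Lama1, Lama3), where 7.42% were. It was 1 of 9 in BALB (Lamb3, background 2.26%), 1 of 9 in SEAGN (Lama3, 2.86%) and 1 of 8 in the table named AKR (Lama3, 7.31%). A count of 1, or of 2 in C3Tag, cannot be told from these shares in so short a list. At least 2-fold lower was Lama2 alone, in Her2 and BALB, against 1.43% and 2.4% of all genes, again a count of 1. No chain was that much lower in C3Tag (background 1.7%), SEAGN (3.22%) or the table named AKR (1.73%). The median log2 ratio over the chains was -0.04 in Her2, 0.44 in C3Tag, -0.03 in BALB, -0.09 in SEAGN and 0.20 in the table named AKR, whereas that of all genes lay between -0.001 and 0.03. The family as a whole was therefore near all genes except in C3Tag and the table named AKR.

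**Figure D2:**
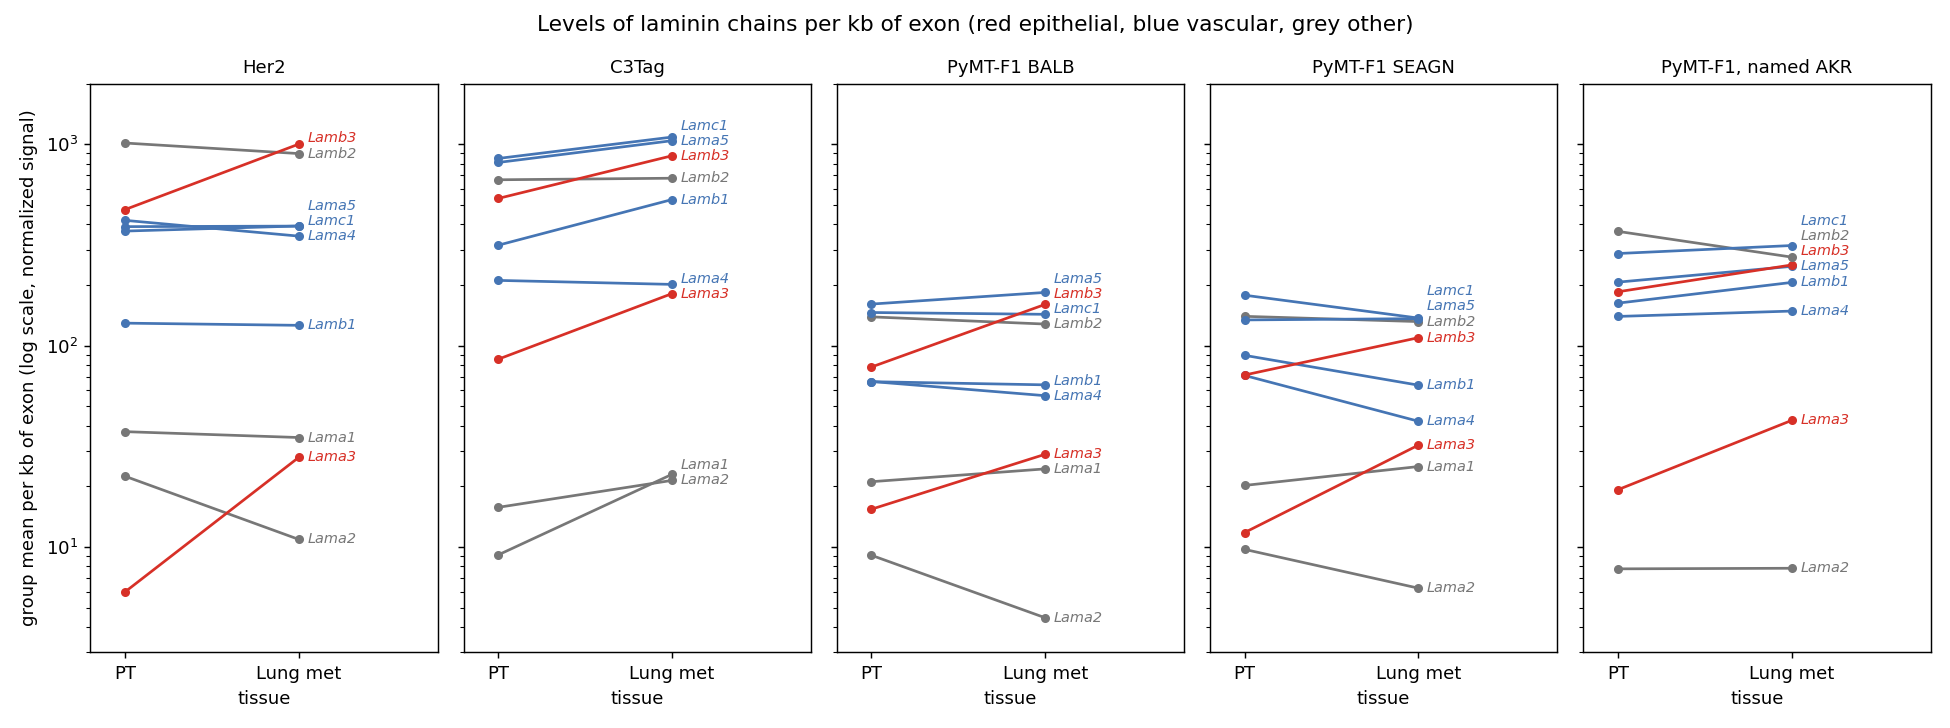
Normalized group means per kb of exon (vertical axis, log scale) in PT and Lung met (horizontal axis) are drawn for each chain in 5 panels, 1 per table, with epithelial chains in red, vascular chains in blue and the others in grey. Lama3 climbs from 5.98 to 27.9 in Her2 yet stays below Lama4 and Lama5 in every panel, whereas Lamb3 stands above Lamb2 in the Lung mets of Her2, C3Tag and BALB.

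Levels of different chains were compared per kb of exon, within a tissue of a table. The length was the union of exons over all annotated transcripts of a gene, and no other length was tried. The order of chains with close levels depends on that choice. Lama5 was the most abundant α chain per kb in 9 of the 10 tissue groups. The exception was PT of Her2, in which Lama4 led with 419 per kb against 370.5 for Lama5. Lama4 was second in the other 9 groups, and in Lung mets of Her2 both stood close, at 349.7 and 393 per kb. Without replicates it cannot be said which of these neighbours differ. Lama3 was the least abundant α chain in PT of Her2, at 0.700% of the summed α signal per kb, and was 3.41% in the Lung mets. Its share was 7.55% in PT and 12.3% in Lung mets of C3Tag, 5.65% and 9.69% in BALB, 4.78% and 13.3% in SEAGN, and 5.15% and 9.52% in the table named AKR, which lacked Lama1. The share of Lama3 was thus higher in the Lung mets of every table, but it stayed below Lama4 and Lama5 in all 10 groups.

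Among the β chains the order itself differed between the tissues. Lamb2 was the most abundant β chain per kb in PT of 5 of 5 tables, with 43.8% to 62.7% of the summed β signal. In Lung mets Lamb3 led in 3 tables, with 49.4% in Her2, 45.5% in BALB and 42.0% in C3Tag, up from 29.3%, 27.6% and 35.4% in PT. In Lung mets of SEAGN and the table named AKR Lamb2 still led, with 43.2% and 37.6% against 35.9% and 34.3% for Lamb3. These shares rest on exon lengths of 6.082 kb for Lamb2 and 6.612 kb for Lamb3. A shorter length for Lamb3 would raise its share, so the order of close levels is not settled. Lamb1 held 6.22% to 29.8% of the β signal over all groups.

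Lamc3, a rare γ chain that is not among the 9, had means in 2 tables only, at 47.2 in PT and 44.4 in Lung mets of C3Tag and 5.85 and 9.95 in SEAGN. The summed α signal per kb hardly differed between tissues in Her2 (ratio 0.954) and SEAGN (0.978), and was 1.09 times that of PT in BALB, 1.20 in the table named AKR and 1.30 in C3Tag. The summed β signal was 1.25 times that of PT in Her2, 1.24 in BALB and 1.37 in C3Tag, so the larger Lamb3 share there lay within a larger sum. It was 1.01 in SEAGN and 1.02 in the table named AKR.

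**Figure D3:**
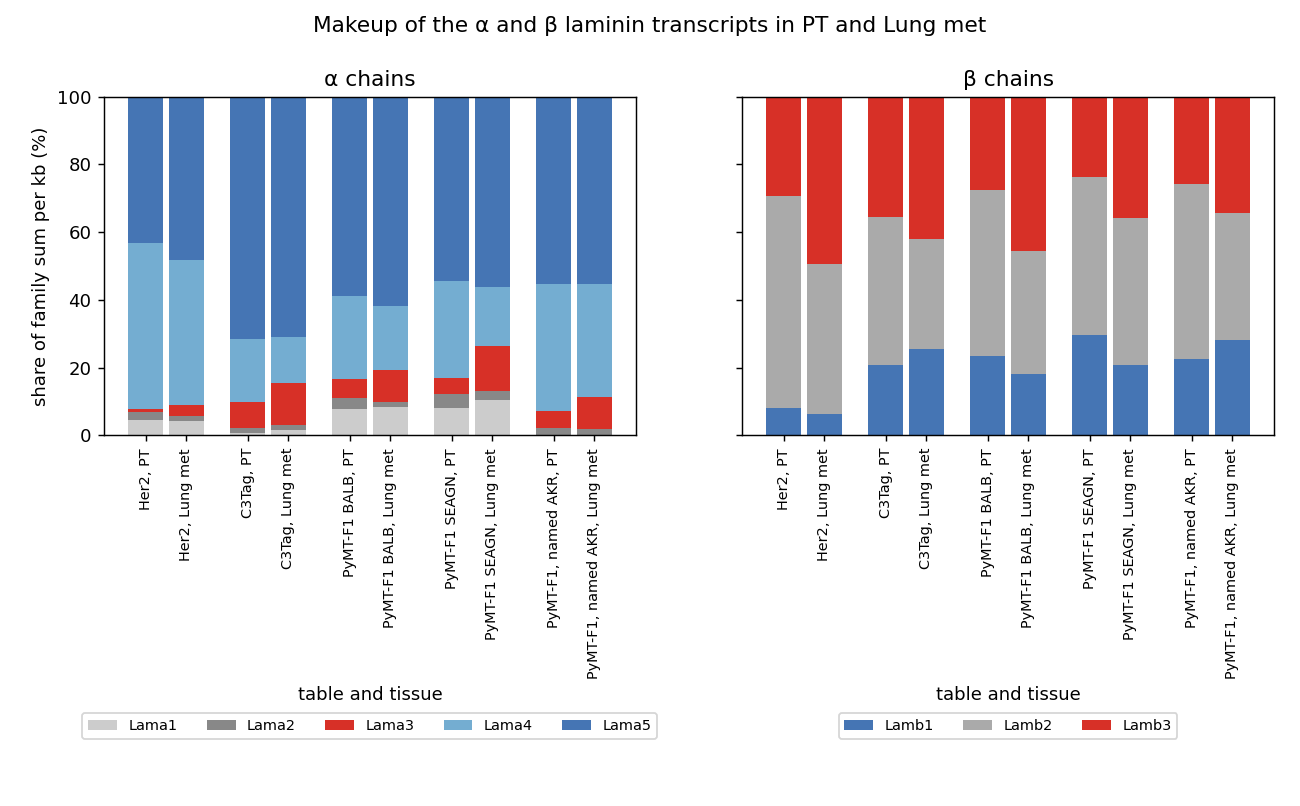
Each bar gives the share (%, vertical axis) of every chain in the summed normalized group mean per kb of its family, for PT and Lung met of each table (horizontal axis). The red segments (Lama3 and Lamb3) are larger in the Lung met bar than in the PT bar of every table, from 0.700% to 3.41% for Lama3 in Her2 and from 27.6% to 45.5% for Lamb3 in BALB.

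The sequence around an annotated transcription start is shown for Lamb3, an epithelial chain that was higher in every table. It is also shown for Lama5, a vascular chain that stayed within 1.28-fold, and for Lama2, the chain at least 2-fold lower in 2 tables. The windows hold 300 bases each, from RefSeq on GRCm38.p6, and capitals mark the GC box GGGCGG on either strand. Lamb3 is from chr1:193301744-193302043 (plus strand), 1 of its 2 RefSeq windows, Lama5 from chr2:180225810-180226109 (minus strand) and Lama2 from chr10:27616893-27617192 (minus strand). By the gene positions given above, Lamb3 and Lama2 begin upstream of these windows, and starts there were not examined.
Lamb3: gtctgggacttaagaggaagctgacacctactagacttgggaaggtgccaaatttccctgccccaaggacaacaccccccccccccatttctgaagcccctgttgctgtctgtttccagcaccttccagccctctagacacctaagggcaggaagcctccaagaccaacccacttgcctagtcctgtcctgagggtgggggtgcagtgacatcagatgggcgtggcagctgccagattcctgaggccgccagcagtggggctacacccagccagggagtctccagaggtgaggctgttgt
Lama5: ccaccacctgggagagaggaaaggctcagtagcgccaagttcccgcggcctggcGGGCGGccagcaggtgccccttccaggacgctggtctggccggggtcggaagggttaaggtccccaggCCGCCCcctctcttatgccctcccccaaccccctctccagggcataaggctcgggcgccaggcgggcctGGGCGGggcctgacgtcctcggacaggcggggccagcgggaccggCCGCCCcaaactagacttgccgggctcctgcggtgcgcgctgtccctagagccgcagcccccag
Lama2: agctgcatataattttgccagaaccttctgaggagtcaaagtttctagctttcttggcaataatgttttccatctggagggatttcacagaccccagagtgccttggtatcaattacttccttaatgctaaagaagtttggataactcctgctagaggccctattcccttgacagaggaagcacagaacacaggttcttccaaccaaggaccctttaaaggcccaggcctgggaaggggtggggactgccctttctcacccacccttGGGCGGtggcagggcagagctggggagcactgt
The Lama5 window held 4 matches to the GC box, the Lama2 window 1 and the Lamb3 window none, and 35.7% of all 32851 windows of this length held at least 1. The Lama5 window was 72.7% G and C with 24 CpG dinucleotides, the Lamb3 window 59.3% with 2 and the Lama2 window 50.3% with 1, against a median of 52.7% and 7 over all windows. Lamb1 resembled Lama5, with 2 matches and 18 CpG. No window of these chains held the AP-1 letters TGANTCA, found on either strand in 7.81% of all windows. Windows were examined for 5 of the 10 chains in the tables, Lama2, Lama5, Lamb1, Lamb2 and Lamb3. Lama3 was not among them, so Lamb3 is the only epithelial chain described here and the letters at the Lama3 start were not examined. A match is a description of letters and not of binding.

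Among the receptors of laminins, a pair of genes reached 2-fold in some tables, and the others stayed below it with ratios that differed between the models. Bcam, the Lutheran receptor that binds Lama5, was higher in Lung mets in 5 of 5 tables, with ratios of 1.54 to 3.12. Itga7, the α subunit of a laminin-binding integrin of muscle, was higher in 5 of 5, from 1.22 in Her2 and BALB to 6.09 in the table named AKR. The syndecan Sdc1 had ratios of 1.00 to 1.75 and the tetraspanin Cd151, a partner of laminin-binding integrins, 1.00 to 1.34. Itga6 and Itgb4, which together form the hemidesmosome receptor of the epithelial laminin, had no shared direction. The Itga6 ratio was 1.38 in Her2, 1.13 in C3Tag, 0.981 in BALB, 0.854 in SEAGN and 0.847 in the table named AKR, and that of Itgb4 was 0.822, 1.05, 1.81, 1.22 and 0.831 in the same order. Of 9 receptor genes, 2 were at least 2-fold higher in C3Tag, SEAGN and the table named AKR, and 0 in Her2 and BALB. None was 2-fold lower in any table. In all 3 tables both were Itga7 and Bcam. Of all genes, 7.42% in C3Tag, 2.86% in SEAGN, 7.31% in the table named AKR, 2.38% in Her2 and 2.26% in BALB were that much higher. The counts in C3Tag and the table named AKR cannot be told from these shares. The median log2 ratio of the list was 0.04 in Her2 and SEAGN, 0.29 in BALB, 0.31 in the table named AKR and 0.43 in C3Tag.

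The hemidesmosome genes had no shared direction. Dst and Plec, which link the hemidesmosome to keratin filaments, were higher in C3Tag (ratios 2.79 and 1.89) and between 0.818 and 1.11 in the other tables. Col17a1, its transmembrane collagen, was at 380 in PT and 58.7 in Lung mets of C3Tag, a ratio of 0.154, but had ratios of 1.83 in BALB and 2.04 in SEAGN, and no mean in the other tables.

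Partners of laminins in the basement membrane differed between the models. The count at least 2-fold higher in Lung mets was 6 of 12 in C3Tag (7.42% of all genes) and 4 of 12 in the table named AKR (7.31%). It was 1 of 12 in Her2 (2.38%), 1 of 11 in SEAGN (2.86%) and 0 of 10 in BALB (2.26%). The count at least 2-fold lower was 1 in Her2 (1.43%), 1 in BALB (2.4%), 2 in SEAGN (3.22%) and 0 in the others. A count of 1, or of 2 in SEAGN, cannot be told from these shares. The median log2 ratio of these partners was 0.89 in C3Tag, 0.13 in Her2, 0.11 in the table named AKR, -0.19 in BALB and -0.25 in SEAGN. Col4a4, a collagen IV chain of kidney and lung basement membranes, was higher in 5 of 5 tables, from 1.67 in BALB to 5.90 in the table named AKR. Col4a3, another such chain, had means in 3 tables and larger ratios there, 48.5 in Her2, 28.5 in C3Tag and 24.7 in the table named AKR. Among the laminin-related genes, Egflam, which encodes the dystroglycan ligand pikachurin, had ratios of 1.52 to 4.92 and was higher in 5 of 5. The netrin genes Ntn1 and Ntn4 had ratios of 0.583 to 1.53 and 0.628 to 1.05. In this list of 4, with Lamc3, the count at least 2-fold higher was 1 in C3Tag, BALB, SEAGN and the table named AKR and 0 in Her2. None was 2-fold lower. Here too, a count of 1 cannot be told from the shares of all genes.

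Most markers of lung cells were higher in the Lung mets, beside the higher epithelial chains. Of the alveolar type 1 markers, 5 to 7 of 7 were at least 2-fold higher in Lung mets in each table, against 2.26% to 7.42% of all genes. The median log2 ratios of that list were 2.82 to 3.86. Ager had ratios of 16.5 to 44.5 and Clic5 of 13.3 to 46.3. Of the alveolar type 2 markers 5 of 8 had means, of which 3 or 4 were at least 2-fold higher, with Lamp3 at ratios of 24.6 to 229.7 and Sftpd at 2.31 to 78.0. The summed group means of the type 1 list ranged from 2364 to 58047 in PT and from 3142 to 57208 in Lung mets, and those of the type 2 list from 3596 to 22618 and from 6910 to 41126. The ends of such ranges can come from different tables, which were normalized separately. These ranges, here and below, therefore give levels only and do not compare the tissues. Aqp5, an abundant member of the type 1 list, had ratios of 0.914 in Her2 and 0.633 in BALB, and the summed list stood at 0.986 times PT in Her2 and 0.864 times in BALB. Of the type 2 list, Etv5 had ratios of 0.861 in Her2, 0.907 in C3Tag and 0.750 in SEAGN, and Abca3 of 0.986 in Her2 and 0.867 in the table named AKR. No marker with a mean was at 0. The part of lung epithelium in the ratios of Lama3 and Lamb3 was not tested.

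Markers of the mammary epithelium showed no such common direction. The basal and myoepithelial list, the cells known for the epithelial laminin in the mammary gland, had a median log2 ratio of 0.95 in Her2, 0.91 in SEAGN, 0.22 in BALB, -0.14 in the table named AKR and -0.37 in C3Tag. Of its 8 genes 5 to 7 had means, and 1 to 3 were at least 2-fold higher, against 2.26% to 7.42% of all genes. In C3Tag 2 of 6 were at least 2-fold lower, Krt14 (0.352) and Krt17 (0.468), against 1 higher. In the table named AKR 2 of 5 were at least 2-fold higher and the summed ratio was 1.10. The summed group mean of the basal list ranged from 1631 to 9107 in PT and from 2911 to 7912 in Lung mets. Krt5 had ratios of 2.85 in BALB, 3.23 in SEAGN and 0.682 in the table named AKR, and Mylk was higher in 5 of 5 with ratios of 1.16 to 3.99. In C3Tag and the table named AKR, Lama3 was more than 2-fold higher, and the basal list had a median below 0 with genes going both ways. The part of basal cells in the ratios of Lama3 and Lamb3 was not tested. The luminal list was nearly level, with medians of 0.002 to 0.23 and a summed ratio of 0.990 to 1.13. Its largest mean ratios were those of Krt19, 1.28 to 14.0 over 4 tables, and Krt8, 0.985 to 1.56.

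Endothelial markers were mostly higher in Lung mets, whereas Lama4 was lower in 4 of 5 tables. All 10 had means in every table and 9 or 10 of them were above PT. At least 2-fold higher were 2 to 9 of them, against 2.26% to 7.42% of all genes. The median log2 ratio of the endothelial markers was 0.65 in Her2, 1.34 in C3Tag, 0.62 in BALB, 0.64 in SEAGN and 1.61 in the table named AKR. Vwf had ratios of 3.08 to 9.36 and Cldn5 of 2.31 to 22.5. The summed group mean of the list ranged from 1211 to 4022 in PT and from 1846 to 10054 in Lung mets. The log2 ratio of Lama4, -0.75 to 0.09, was below the endothelial median in each table. The part of endothelial or other cells in the Lama4 ratios was not tested.

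Most fibroblast markers were lower in Lung mets of 4 tables, beside the lower Lama2 of 3 of them. Over the tables, 1.43% to 3.22% of all genes were at least 2-fold lower. Of the 8 fibroblast genes, 6 were that much lower in Her2, SEAGN and the table named AKR, 5 in BALB and 1 in C3Tag. None of the 8 was 2-fold higher. The median log2 ratio was -2.31 in SEAGN, -1.54 in BALB, -1.39 in the table named AKR, -1.30 in Her2 and -0.03 in C3Tag. Lum had ratios of 0.0239 to 0.323 and Col1a1 of 0.143 to 0.650. Pdgfra, a receptor of the same cells, was instead higher in 5 of 5 tables with ratios of 1.36 to 1.92, and Pdgfrb had ratios of 0.803 to 1.57. The summed group mean ranged from 11687 to 36707 in PT and from 3392 to 34224 in Lung mets. The table named AKR had the low fibroblast median without a lower Lama2 (ratio 1.01). Markers of skeletal muscle, a tissue known for Lama2, had median log2 ratios of -5.73 in BALB, -4.05 in C3Tag, -3.71 in Her2, -3.28 in SEAGN and 0.17 in the table named AKR, from 2 to 5 of 6 genes with means. Acta1 had ratios of 0.0173 to 3.30 and Ttn of 0.0188 to 0.731. Their summed group means were 69.4 to 5605 in PT and 31.1 to 464 in Lung mets. Lama2 in C3Tag was higher (1.36) although that list was lower there. The smooth muscle and pericyte list had medians of -0.21 to 0.39, with Des at ratios of 0.318 to 8.65 and Tagln at 1.00 to 1.97. Of the adipocyte list at most 1 of 5 genes, Fabp4, had a mean, with ratios of 0.151 to 0.768. The part of these cells in the Lama2 ratios was not tested.

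**Figure D4:**
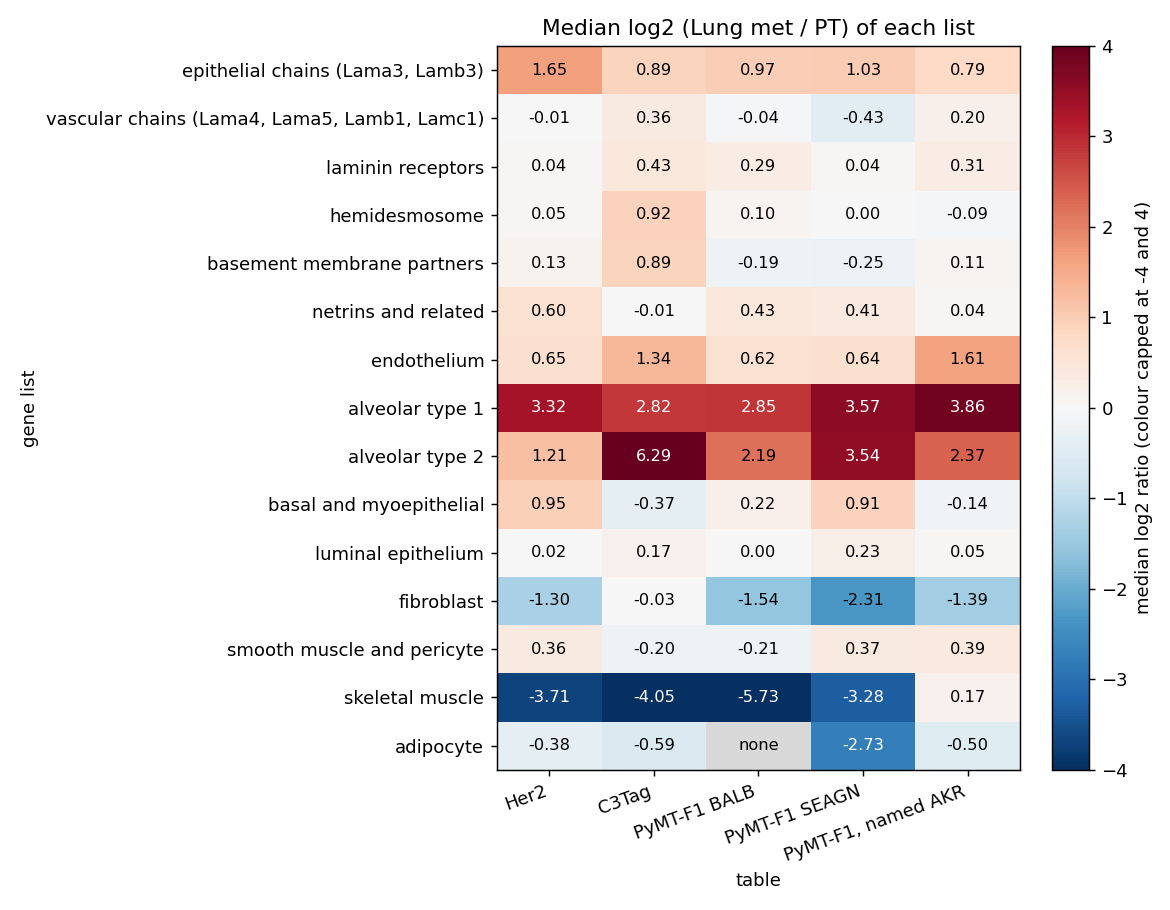
The median log2 ratio of Lung met over PT is given by colour and number for the epithelial and vascular laminin chains and for each gene list (vertical axis) in each table (horizontal axis), with colour capped at -4 and 4. The epithelial chains lie at 0.79 to 1.65 in every column, below the alveolar type 1 list at 2.82 to 3.86, and the fibroblast list is negative in every column, from -2.31 to -0.03.

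For the chains that were at least 2-fold from PT in one direction in 2 or more tables, the genes with the closest log2 ratios over the 5 tables were found among 11920 genes, by Euclidean distance. Lamb3 was nearest to Ace, the angiotensin-converting enzyme, at a distance of 0.41, then to Kcnh1 (0.46) and Slc45a3 (0.49). Lama2 was nearest to Dact1 (0.37), Pde10a (0.52) and Abca9 (0.59). Lama3 had no gene as close, with Srgn, the granule proteoglycan serglycin, at 0.87, Hmcn1, which encodes a basement membrane protein, at 0.92 and Fgfbp1 at 0.93. The Ace log2 ratio was 1.26 in Her2, 1.05 in C3Tag, 1.12 in BALB, 0.53 in SEAGN and 0.43 in the table named AKR, beside 1.08, 0.70, 1.03, 0.62 and 0.44 for Lamb3. Without the table named AKR, over 12067 genes, Dact1 was still the nearest to Lama2 (0.25), whereas Lamb3 was nearest to Dzip1l (0.30) and Lama3 to Fam189a2 (0.49).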

How the data were processed

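The samples were PT and Lung mets of transgenic mice, profiled by RNA-seq of total RNA depleted of ribosomal RNA per the labels. The authors aligned reads and counted them per gene in Partek Flow, normalized the counts by a method not given in the sources used here, and compared the tissues with Gene Specific Analysis in the driver models and DESeq2 in PyMT-F1. The submitters' processing notes name STAR 2.7.8a and mm39, while the methods name other mouse builds, so no coordinates of the files were used. The deposited group means (least-squares means, a normalized signal with no SD or n) of 5 tables were used. For the ECM receptor genes, the ratios in the table deposited under the name AKR are listed under BL6 in the study's supplementary data. The group means of that table may therefore be those of that strain. The P-value, FDR, ratio and fold change columns hold the authors' own comparisons and were not used. The Myc table, of which no mean was used, was therefore not analysed here. Which samples entered each mean, and the depth of each, are unknown.

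The log2 ratio of both means was computed per gene, Lung met over PT, in Python 3.11 (pandas), without a pseudocount or filter on low values, and a ratio of at least 2-fold was counted as called. The counting was tested on simulated data. Lists were summarized by counts and medians. Exon lengths (union of exons) and gene positions came from GENCODE M21 (GRCm38), by symbol. The gene identifiers of BALB and SEAGN are those of a BALB/cJ strain annotation (MGP_BALBcJ). Their levels per kb and shares therefore divide counts from 1 gene model by lengths from another. Genes named from a list were up to 4 per pathway list with 1 direction in all 5 tables and the largest mean size of log2 ratio, 2 per cell marker list, and the 3 genes nearest to a chain among those with a mean of at least 10 in PT or Lung met of every table. Col4a3, Col17a1, Dst, Plec, Itga6, Itgb4, Ntn1, Ntn4, Aqp5, Etv5, Abca3, Krt14, Krt17, Pdgfra and Pdgfrb were named after their values were seen. The members and lists were chosen with earlier results of these data known. Alternatives were a 1.5-fold threshold, a pseudocount of 1, centring on the median of all genes, a minimum mean of 10, and other sets of chains. Leaving out the table named AKR was added after the data were seen. A set with a gene not reported here was not run.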

Additional observations from a re-analysis of the deposited data

How the results depend on the processing

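No paired analysis was possible because the tables hold group means and no value of a single animal. No library could be left out for the same reason. With a 1.5-fold threshold, chains higher in Lung mets numbered 4 of 9 in C3Tag (14.0% of all genes), 2 of 9 in BALB (6.2%) and 2 of 9 in SEAGN (7.11%), and those lower in SEAGN numbered 2 of 9 (8.32%). The other counts stayed within 1.5 times under this threshold, and all counts did with a pseudocount of 1 or centring. None of the 88 recomputed log2 ratios of single chains changed sign, and the largest shift was 0.03. A pseudocount cannot change a sign, so only the 44 centred values could have done so. The difference between vascular and epithelial chains was below 0 in all 45 values, from -2.27 to -0.24, whichever chain was left out, with medians or with a pseudocount. In 4 tables each epithelial chain stood above each vascular chain. There, leaving out a chain or taking medians could not change the sign, only the size. It ranged from -2.27 to -1.13 in Her2, -1.84 to -1.02 in SEAGN, -1.07 to -0.93 in BALB, -0.73 to -0.35 in C3Tag and -0.94 to -0.24 in the table named AKR. Without the table named AKR, the gene nearest to Lamb3 and that nearest to Lama3 were other genes, whereas Dact1 stayed nearest to Lama2. The share of all genes at least 2-fold from PT kept within its 95% exact binomial interval when genes with means under 10 were left out. The genes kept were part of the full set, and the interval treats genes as independent. This was therefore a weak check. Precision is limited by the absence of replicate values and of depth.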
